A study of Homo sapiens with 8 samples.

Results

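The genes described here are 32 enzymes and carriers that bring pyruvate into mitochondria, turn the tricarboxylic acid (TCA) cycle and connect it with glutamate and glutamine. They were chosen by symbol, each symbol stood on 1 of the 24252 rows deposited per library, and all 32 were among the 11740 genes expressed highly enough to be tested. RNA had been sequenced from HaCaT, a spontaneously immortalised line of human skin keratinocytes, in 4 libraries labelled Control, which carry no treatment label, and 4 labelled OGD-R with the treatment OGD/R, sampled at a stage called early. OGD-R commonly stands for oxygen and glucose deprivation followed by the return of both. The labels do not spell it out, and the sources used here state neither its duration nor whether replicates were separate cultures. P-values therefore cover only the spread among these 8 libraries, possibly a technical one. All values are read as FPKM, fragments scaled to gene length and to library size, which can be compared between genes.

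Pyruvate from glycolysis crosses the inner mitochondrial membrane through a carrier, and the pyruvate dehydrogenase complex makes acetyl-CoA from it. Citrate synthase joins acetyl-CoA to oxaloacetate, and the cycle then oxidises the carbon back to oxaloacetate while it charges NADH, FADH2 and a nucleoside triphosphate. Glutamine is the other main fuel: the glutamate made from it is turned into alpha-ketoglutarate by glutamate dehydrogenase or aminotransferases, while glutamine synthetase makes glutamine from glutamate and ammonia. Proliferating epithelial cells draw on the cycle for citrate and aspartate as well as for energy.

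The Control libraries did not form 1 cluster. Across all genes tested, log2 values correlated at 0.992 between Controls 1 and 2 and at 0.991 between Controls 3 and 4, but at 0.874 to 0.881 across these pairs. The OGD-R libraries correlated at 0.992 to 0.993 with each other, at 0.940 to 0.947 with Controls 1 and 2, and at 0.879 to 0.887 with Controls 3 and 4. CDK1, the mitotic kinase, stood at 61.7, 73.3, 4.81 and 2.79 FPKM across Controls 1 to 4, and between 45.4 and 47.6 FPKM in OGD-R. The stress-induced factor ATF3 ran the other way, with 5.01, 3.41, 147 and 139 FPKM in Controls 1 to 4 and 3.20 to 4.56 FPKM in OGD-R. KRT10, a keratin of differentiating keratinocytes, had 29.98, 27.6, 285 and 259 FPKM in Controls 1 to 4 and 415 to 514 FPKM in OGD-R, so that it set OGD-R apart from Controls 1 and 2 as well. All 8 keratinocyte markers looked at, among them KRT5, KRT14 and TP63, were present in every library. Markers of fibroblasts summed to 0.870 to 8.72 FPKM, most of it COL1A1, and those of melanocytes, endothelial cells and leukocytes to under 1 FPKM each in every library. Transcripts encoded in mitochondria took 17.5% to 21.9% of the summed FPKM in Control and 26.6% to 29.1% in OGD-R, and the larger their share, the smaller the room left for all other genes. No depth is stated. Estimated from the steps between low values, 1 fragment on 2000 bases equalled 0.0199 FPKM in Control 1, the lowest of the libraries, and 0.0294 FPKM in Control 4, the highest, an estimate that rests on the 17.4% to 33.3% of low values that lay within 1% of a step. Because of this split, the values of all 4 Controls are given, and fold changes are also given against each pair of Controls alone.

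Of the 32 genes, GLUL and IDH1 rose and ME2 fell in OGD-R. The other 29 genes missed the threshold of the test (limma on log2(FPKM + 1), Benjamini-Hochberg adjusted p under 0.05 over all 11740 genes). GLUL makes glutamine, IDH1 is the isocitrate dehydrogenase of the cytosol, and ME2 turns malate into pyruvate in mitochondria. The share called, 9.38%, lies below the 19.9% of all genes tested. By direction, the background was 10.2% called higher and 9.69% called lower. The median log2 fold change of the 32 was 0.22, beside 0.02 over all genes tested. OGD-R lay wholly above Control for 5 of the 32 (GLUL, IDH1, PDHA1, SUCLG1 and SDHA), where 15.2% of all genes tested did so, and below for ME2 alone, where 14.8% did so. In bulk RNA, fewer cells of a type and less RNA per cell cannot be told apart.

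The 32 genes had a common layout across libraries: in 30 of them both Controls 3 and 4 lay below both Controls 1 and 2. The exceptions were GLUL, where Controls 3 and 4 were the higher ones, and GOT1, where the pairs overlapped. Among all genes tested, 48.1% lay lower in Controls 3 and 4 and 34.1% higher. Summed over the 32, the level was 1775, 1824, 1161 and 1056 FPKM in Controls 1 to 4 and 1809, 1752, 1726 and 1804 FPKM in OGD-R 1 to 4. OGD-R therefore lay with Controls 1 and 2 in this sum and above Controls 3 and 4. For 22 of the 32 the OGD-R mean fell between the means of the Control pairs, against 44.8% of all genes tested. CDK1, ATF3 and KRT10 split the Controls into the same pairs, CDK1 in this direction and ATF3 and KRT10 in the opposite one. Their part in the layout of the metabolic genes was not tested.

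**Figure D1:**
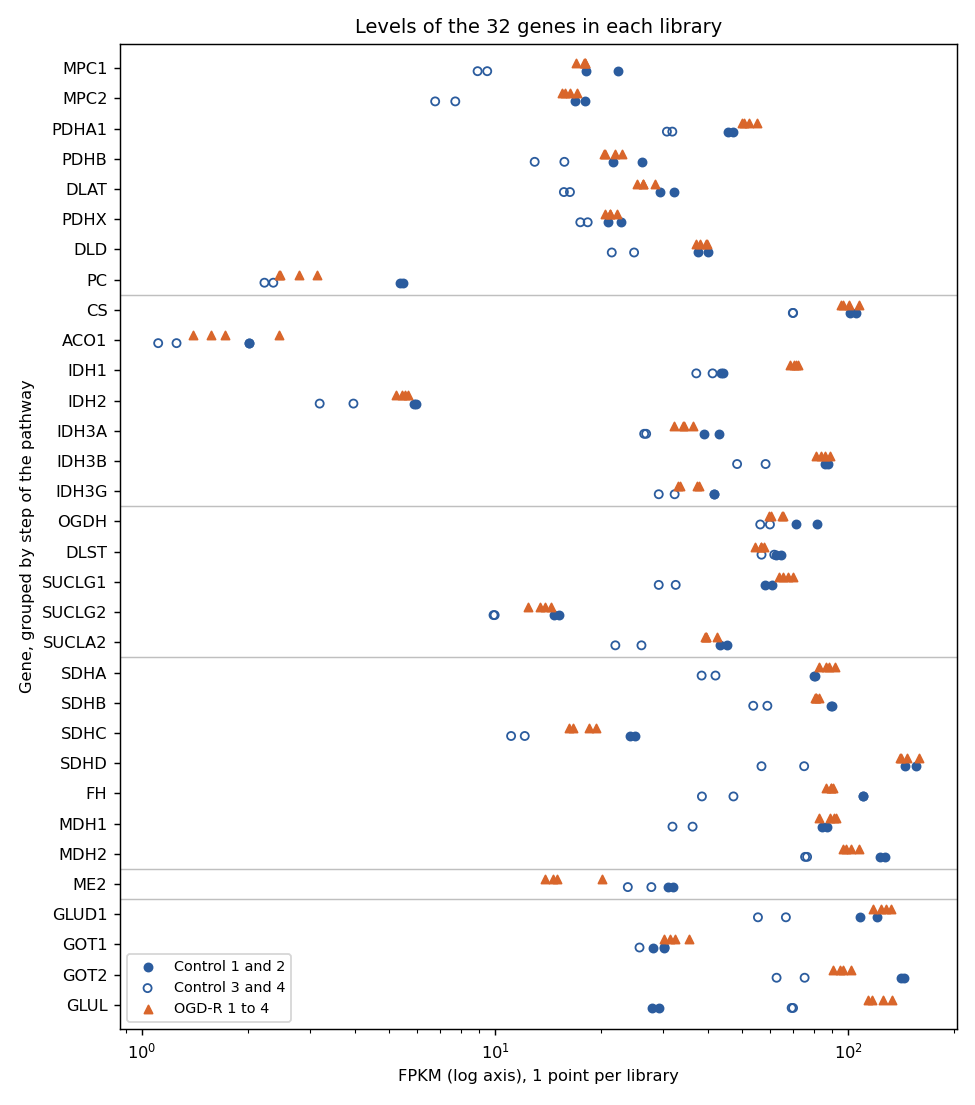
FPKM of each of the 32 genes (log axis) in the 8 libraries, with 1 point per library and grey lines between steps of the pathway. Filled circles are Controls 1 and 2, open circles Controls 3 and 4, triangles the 4 OGD-R libraries. For most genes the open circles lie to the left and the triangles near the filled circles. GLUL, IDH1 and ME2 have the triangles clear of all circles, as do PDHA1, SUCLG1 and SDHA.

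Which Controls were used therefore decided most of the calls. Against Controls 3 and 4 alone, 25 of the 32 were called higher and 1 lower (background 39.2% and 28.4%, 67.6% in either direction), with a median log2 fold change of 0.56 beside 0.09 over all genes. Against Controls 1 and 2 alone, 4 were called higher and 12 lower (background 22.8% and 32.4%, 55.2% in either direction), with a median of -0.13 beside -0.05. Both fits called PDHA1, IDH1, SUCLG1 and GLUL higher and ME2 lower. They called DLAT, IDH3A, SDHB, SDHC, FH, MDH2 and GOT2 in opposite directions. How many of all genes tested were called alike or in opposite directions by both fits was not counted. These fits share the OGD-R libraries, and their p-values rest on the spread within a pair of Controls and within OGD-R.

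**Figure D2:**
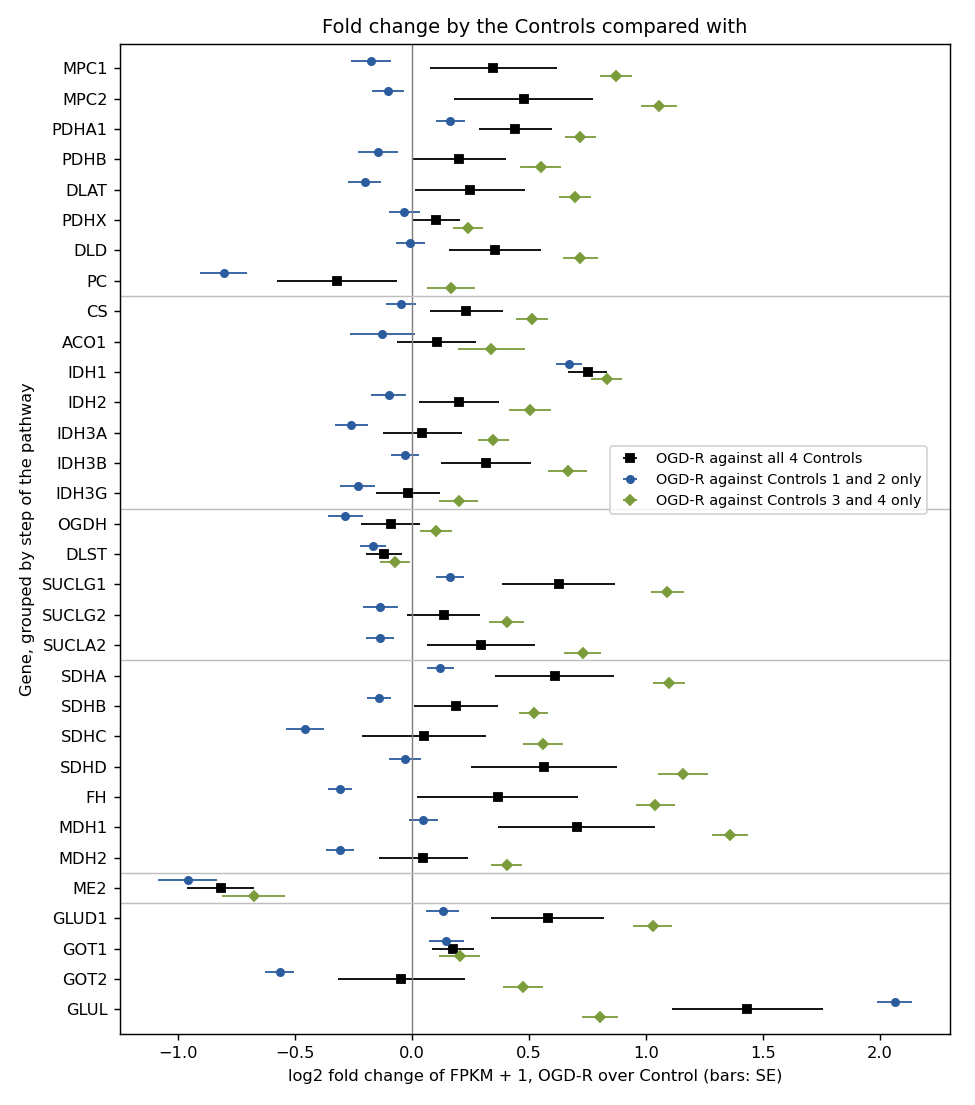
Log2 fold change of FPKM + 1 in OGD-R over Control for each of the 32 genes, with standard errors as bars, against all 4 Controls (black squares), Controls 1 and 2 (blue circles) and Controls 3 and 4 (green diamonds). IDH1 and GLUL lie to the right of 0 and ME2 to the left in all 3 fits. PDHA1, SUCLG1, SDHA, MDH1, GLUD1 and GOT1 also lie to the right in all 3, and DLST to the left. For genes such as FH and GOT2 the circles and diamonds lie on opposite sides of 0.

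Glutamine synthetase had the largest log2 fold change of the 32. GLUL (ENSG00000135821, chromosome 1, 182381704 to 182392206, minus strand, GRCh38) was at 27.8, 29.1, 69.8 and 69.2 FPKM across Controls 1 to 4 beside 117, 114, 126 and 133 FPKM in OGD-R 1 to 4. All OGD-R libraries lay above all Controls, and Controls 3 and 4 lay between Controls 1 and 2 and OGD-R, as they did for KRT10, whose part in this was not tested. Its log2 fold change was 1.43 ± 0.32 (SE; adjusted p = 0.0176 by limma), 2.06 against Controls 1 and 2 alone and 0.80 against Controls 3 and 4 alone. In Control it ranked 13 among the 32 by mean level and in OGD-R 3. The call was lost without OGD-R 3 (adjusted p = 0.0553 by limma) or without OGD-R 4 (0.0563). GENCODE 29 lists 4 pseudogenes named after GLUL, so how reads were divided between them is uncertain.

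The other enzymes of glutamate metabolism did not pass the test. GLUD1, glutamate dehydrogenase, was at 108, 121, 66.7 and 55.5 FPKM across Controls 1 to 4 beside 132, 124, 117 and 128 FPKM in OGD-R (adjusted p = 0.128 by limma), where OGD-R 3 lay below Control 2. GOT2, the mitochondrial aspartate aminotransferase, was at 144, 141, 75.3 and 62.7 FPKM across Controls 1 to 4 beside 102, 96.6, 90.4 and 94.9 FPKM in OGD-R. Its OGD-R libraries lay below Controls 1 and 2 and above Controls 3 and 4, and its log2 fold change of -0.05 stands between -0.56 and 0.47 for these pairs. GOT1, the cytosolic form, was the most even of the 4, with 25.7 to 30.2 FPKM in Control and 30.2 to 35.4 FPKM in OGD-R (adjusted p = 0.214 by limma).

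Several genes of glutamine uptake and of glutamine or glutamate use, from the list of 50 related pathway genes, fell, among them SLC1A5, GPT2, PSAT1 and GFPT1. SLC1A5, a glutamine transporter of the plasma membrane, was at 107, 94.7, 128 and 107 FPKM across Controls 1 to 4 beside 67.7, 61.9, 59.1 and 64.1 FPKM in OGD-R (adjusted p = 0.00225 by limma). SLC1A5 fell by 0.77 on the log2 scale, and every OGD-R library lay below every Control. GPT2, the mitochondrial alanine aminotransferase, was at 10.95, 11.6, 15.9 and 14.2 FPKM across Controls 1 to 4 beside 6.43, 5.89, 5.46 and 6.14 FPKM in OGD-R. GPT2 fell by 1.01 and PSAT1, the phosphoserine aminotransferase, by 1.26 on the log2 scale; PSAT1 has 4 named pseudogenes. GFPT1, which spends glutamine on hexosamines, fell by 0.96, a call lost without Control 4 or without any single OGD-R library (limma adjusted p between 0.0576 and 0.0837). Its log2 fold change was -0.51 against Controls 1 and 2 alone and -1.41 against Controls 3 and 4 alone. ASNS, asparagine synthetase, lay wholly below the Controls at 12.7 to 14.7 FPKM, but with 18.8, 18.5, 84.995 and 70.5 FPKM in Controls 1 to 4 it did not pass (adjusted p = 0.0771 by limma). The glutamine carriers SLC38A1 and SLC38A2 overlapped between the groups.

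**Figure D3:**
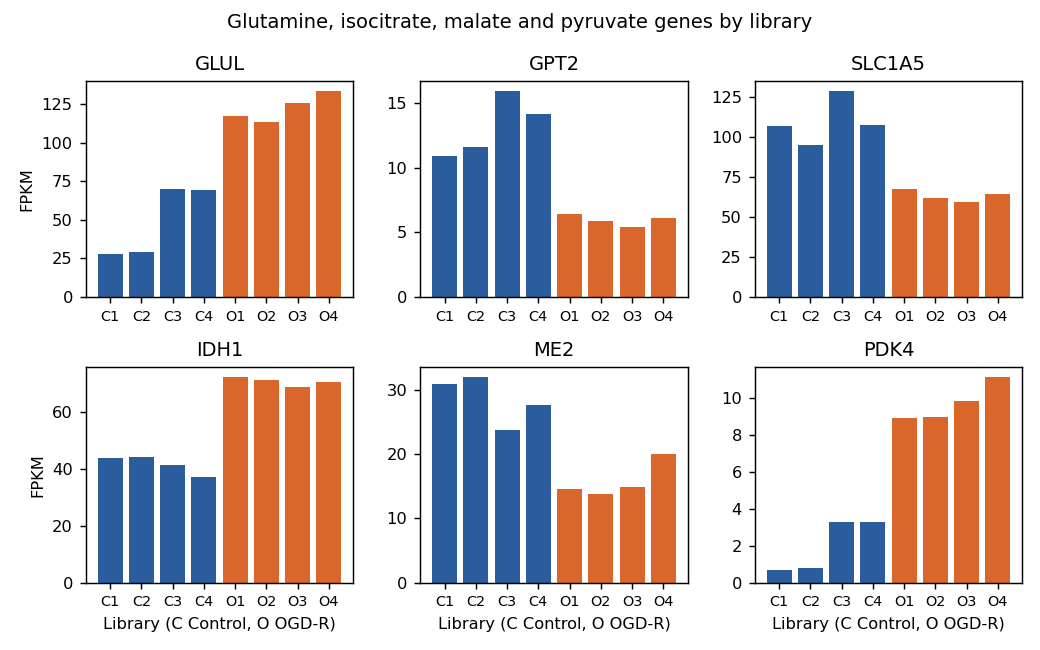
FPKM of GLUL, GPT2, SLC1A5, IDH1, ME2 and PDK4 in each library, as bars from 0, with Controls 1 to 4 (C1 to C4) in blue and OGD-R 1 to 4 (O1 to O4) in orange. GLUL, IDH1 and PDK4 are higher in every OGD-R library than in any Control, and GPT2, SLC1A5 and ME2 lower; GLUL and PDK4 also differ between Controls 1 and 2 and Controls 3 and 4.

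IDH1 rose by a like amount against either pair of Controls. IDH1 (ENSG00000138413, chromosome 2, 208236227 to 208266074, minus strand) makes NADPH in cytosol and peroxisomes. Its level was 43.7, 44.2, 41.3 and 37.2 FPKM across Controls 1 to 4 beside 72.1, 71.2, 68.4 and 70.5 FPKM in OGD-R 1 to 4. The gap between the groups was wider than the range within either, and the log2 fold change was 0.75 ± 0.08 (SE; adjusted p = 0.000847 by limma), 0.67 against Controls 1 and 2 and 0.83 against Controls 3 and 4. An antisense gene, IDH1-AS1, overlaps it, and the sources used here do not say whether the counting used strand.

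The bases before the IDH1 start are shown because it was the called member whose window of 250 bases holds no exon of the gene itself in GENCODE 29. The window is chr2:208254459-208254708, minus strand, GRCh38.p14, from RefSeq, written 5′ to 3′; other annotated transcripts of the gene start further upstream. Capitals mark the only match to any of the 7 motifs searched, the letters ACGTGC at the core of sites for hypoxia-inducible factors, whose first base lies 111 bases before the start.
IDH1: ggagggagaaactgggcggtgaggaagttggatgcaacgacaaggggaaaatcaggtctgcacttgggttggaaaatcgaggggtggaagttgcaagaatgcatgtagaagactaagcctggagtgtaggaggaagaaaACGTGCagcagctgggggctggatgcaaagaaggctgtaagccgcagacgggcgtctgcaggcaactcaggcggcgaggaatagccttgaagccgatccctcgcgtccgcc
Of the 32 members 30 had a promoter window in RefSeq (all but OGDH and SDHC). ACGTGC on either strand stood in 3 of the 30 (PDHB, DLAT and IDH1) and in 5.85% of all 27305 windows of this length. The CCAAT box, CCAAT on either strand, stood in 14 of the 30, or 46.7%, beside 33.0% of all windows. The E-box CACGTG, which can overlap ACGTGC, was found in PDHB alone (6.49% of all windows), the NRF1 motif in SDHD alone (1.13%) and the amino acid response element TGATGNAA in GOT1 alone (3.19%). The ERR motif TCAAGGTCA and the CRE TGACGTCA were in none of the 30 (0.319% and 1.77% of all windows). A match is a run of letters and not a measured binding site.

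The other steps from citrate to alpha-ketoglutarate did not pass the test. CS, citrate synthase, was at 101, 105, 69.9 and 69.7 FPKM across Controls 1 to 4, and between 95.3 and 107.7 FPKM in OGD-R, above Controls 3 and 4. The NAD-dependent isocitrate dehydrogenase is built of the products of IDH3A, IDH3B and IDH3G. Their OGD-R means were 34.2, 85.1 and 35.4 FPKM against 33.9, 70.1 and 36.2 FPKM in Control, with log2 fold changes of 0.05, 0.32 and -0.02. In Controls 1 and 2 the means were 41.1, 86.8 and 41.7 FPKM. In Controls 3 and 4 they were 26.6, 53.4 and 30.7 FPKM. IDH2, the mitochondrial NADP-dependent enzyme, was low, at 3.19 to 5.97 FPKM in Control and 5.24 to 5.66 FPKM in OGD-R. ACO1, the cytosolic aconitase that doubles as an iron-responsive RNA-binding protein, was the lowest of the 32, at 1.11 to 2.01 FPKM in Control and 1.40 to 2.44 FPKM in OGD-R.

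ME2 was the member that fell. ME2 (ENSG00000082212, chromosome 18, 50878734 to 50954257, plus strand) was at 30.9, 32.01, 23.8 and 27.7 FPKM across Controls 1 to 4 beside 14.6, 13.9, 14.9 and 20.03 FPKM in OGD-R 1 to 4. OGD-R 4 was the highest of its group but still below every Control. ME2 fell by 0.82 on the log2 scale (SE 0.143; adjusted p = 0.0062 by limma), by 0.96 against Controls 1 and 2 and by 0.68 against Controls 3 and 4. In mean level it ranked 21 among the 32 in Control and 28 in OGD-R. ME1, its cytosolic relative on the related list, also lay wholly below the Controls, at 13.2 to 15.2 FPKM against 16.4 to 28.0 FPKM, without passing (adjusted p = 0.0692 by limma).

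No gene of pyruvate entry passed the test. PDHA1, the catalytic alpha subunit of pyruvate dehydrogenase, was at 47.1, 45.6, 31.8 and 30.7 FPKM across Controls 1 to 4 beside 55.4, 52.4, 50.6 and 49.9998 FPKM in OGD-R 1 to 4. Its groups did not overlap, and its log2 fold change was 0.44 ± 0.16 (SE; adjusted p = 0.0835 by limma). PDHB, its partner, was at 20.4 to 22.8 FPKM in OGD-R, within the Control range of 12.9 to 25.995 FPKM. DLAT, the acetyltransferase core, had an OGD-R range of 25.3 to 28.4 FPKM between Controls 3 and 4 (15.7 and 16.3) and Controls 1 and 2 (29.3 and 32.1). PDHX, which tethers DLD to that core, varied least of the complex, at 17.4 to 22.7 FPKM over all 8 libraries. DLD, the dihydrolipoyl dehydrogenase shared with the alpha-ketoglutarate complex, was at 37.1 to 39.9 FPKM in OGD-R and at 37.5, 40.2, 24.8 and 21.4 FPKM in Controls 1 to 4. MPC1 and MPC2, the subunits of the mitochondrial pyruvate carrier, had OGD-R means of 17.7 ± 0.51 and 16.1 ± 0.70 FPKM (SD, n = 4) beside pair means of 20.2 and 17.4 FPKM in Controls 1 and 2 and 9.21 and 7.24 FPKM in Controls 3 and 4.

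PC, pyruvate carboxylase, lay nearer to Controls 3 and 4. Its level was 5.50, 5.40, 2.35 and 2.22 FPKM across Controls 1 to 4 beside 3.13, 2.78, 2.44 and 2.45 FPKM in OGD-R. Its log2 fold change was -0.80 against Controls 1 and 2 and 0.17 against Controls 3 and 4, and -0.32 with all libraries (adjusted p = 0.417 by limma).

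Regulators of pyruvate use on the related list were among those that passed. PDK4, a kinase that switches pyruvate dehydrogenase off, was at 0.684, 0.773, 3.28 and 3.27 FPKM across Controls 1 to 4 beside 8.92, 8.98, 9.83 and 11.1 FPKM in OGD-R. Like GLUL and KRT10, it had Controls 3 and 4 between the others, and a log2 fold change of 1.97 ± 0.34 (SE; adjusted p = 0.00562 by limma). PDK2, another of these kinases, was at 2.13 to 2.44 FPKM in Control and 3.92 to 5.11 FPKM in OGD-R (log2 fold change 0.71). PDK1, the kinase best known as a target of hypoxia-inducible factor, overlapped between the groups (1.01 to 2.66 FPKM in OGD-R, adjusted p = 0.260 by limma). SLC16A3, a lactate exporter, fell by 1.35 on the log2 scale, from 11.1 to 20.1 FPKM in Control to 4.17 to 5.95 FPKM in OGD-R. LDHA and LDHB, the lactate dehydrogenase subunits, did not pass (adjusted p = 0.536 and 0.866 by limma). ACLY, which splits exported citrate, fell by 0.49 on the log2 scale. ACSS1, which makes acetyl-CoA from acetate in mitochondria, had a log2 fold change of 1.14 at 2.58 to 3.70 FPKM in the OGD-R libraries against 0.727 to 1.14 in the Controls. In all, of 50 related genes 41 were tested, 3 rose and 7 fell. This is 24.4% beside 19.9% of all genes tested, and the median log2 fold change was -0.08. All 10 lay wholly above or below the Controls, a layout that a call favours. Among all genes tested, called or not, 30% had it, so these shares cannot be set against each other. The layout fixes the direction of the 10 against either pair of Controls alone. They were also called against each pair, in fits that share the OGD-R libraries. Those fits called 67.6% of all genes against Controls 3 and 4 and 55.2% against Controls 1 and 2.

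The enzymes from alpha-ketoglutarate to succinate did not pass either. OGDH and DLST, components of the alpha-ketoglutarate dehydrogenase complex, were at 59.5 to 65.2 and 54.5 to 57.7 FPKM in OGD-R and at 56.4 to 81.7 and 56.9 to 64.4 FPKM in Control. DLST varied little over the 8 libraries. SUCLG1, the subunit common to both succinyl-CoA ligases, was at 58.1, 61.0, 32.5 and 29.1 FPKM across Controls 1 to 4 beside 69.7, 67.7, 63.9 and 65.6 FPKM in OGD-R. Its groups did not overlap, but the distance between the Control pairs was larger than that between OGD-R and Controls 1 and 2 (log2 fold change 0.63 ± 0.24, SE; adjusted p = 0.108 by limma). SUCLG2 and SUCLA2 are the subunits that set the specificity for GDP and for ADP. Their OGD-R means were 13.5 ± 0.84 and 40.3 ± 1.45 FPKM, and their Control means 12.4 ± 2.88 and 34.2 ± 11.9 FPKM (SD, n = 4 each). In Controls 1 and 2 the means were 14.9 and 44.4 FPKM. In Controls 3 and 4 they were 9.94 and 23.9 FPKM.

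Succinate dehydrogenase, also complex II of the respiratory chain, and the steps after it had wide gaps between the Control pairs, and no gene of them passed the test. SDHA, the flavoprotein, was at 80.4, 80.1, 42.1 and 38.5 FPKM across Controls 1 to 4 beside 91.8, 88.1, 83.0 and 86.9 FPKM in OGD-R, wholly above but not called (adjusted p = 0.129 by limma). SDHB, the iron-sulfur subunit, was at 80.5 to 82.8 FPKM in OGD-R, below the 89.6 and 89.9 FPKM of Controls 1 and 2 and above the 59.1 and 53.9 FPKM of Controls 3 and 4. The membrane anchors differed in level, with SDHD the highest of all 32 genes in both groups, with means of 147 ± 8.51 in OGD-R and 108 ± 49.4 FPKM in Control, and SDHC with 17.6 ± 1.46 and 18.1 ± 7.48 FPKM (SD, n = 4 each). In Controls 1 and 2 the means of SDHD and SDHC were 150 and 24.5 FPKM. In Controls 3 and 4 they were 66.0 and 11.6 FPKM. SDHA, SDHC and SDHD have 3, 4 and 3 named pseudogenes, and exons of SDHD overlap exons of other genes, so these levels are uncertain.

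FH, fumarase, was at 110.1, 110.5, 47.3 and 38.5 FPKM across Controls 1 to 4 beside 86.6 to 90.5 FPKM in OGD-R. Its OGD-R libraries lay between the Control pairs, and its log2 fold change was -0.31 against Controls 1 and 2 and 1.04 against Controls 3 and 4. MDH1, the cytosolic malate dehydrogenase, was at 87.1, 84.5, 36.3 and 31.8 FPKM across Controls 1 to 4 beside 92.2, 88.8, 82.9 and 91.5 FPKM in OGD-R. Its log2 fold change was 0.05 against Controls 1 and 2, and it had the largest log2 fold change of the 32 against Controls 3 and 4, 1.36. MDH2, the mitochondrial form, was at 127, 123, 76.5 and 75.6 FPKM across Controls 1 to 4 beside 96.5 to 107 FPKM in OGD-R, between the pairs.

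Comparing paralogs within a library removes what scales both alike, except in part for low genes such as IDH2. For these the 1 added to each FPKM weighs more. The difference of log2(FPKM + 1) between IDH1 and IDH2 was 2.68, 2.71, 3.09 and 3.19 in Controls 1 to 4 and 3.43 to 3.52 in OGD-R, a shift of 0.55 with no overlap. MDH1 minus MDH2 was -0.54, -0.54, -1.06 and -1.22 in Controls 1 to 4 and -0.30 to -0.11 in OGD-R, a shift of 0.66 with no overlap, which puts the cytosolic transcript nearer to the mitochondrial one in OGD-R. For each of these pairs the exact two-sided permutation p was 0.0286, the smallest that 4 against 4 libraries can give. After Benjamini-Hochberg adjustment over the 4 pairs compared, this permutation p was 0.0571, which misses the threshold. Full separation in these pairs alone cannot pass this adjustment, so the miss says nothing about the size of the shifts. GOT1 minus GOT2 was -1.54 ± 0.03 in OGD-R and -1.76 ± 0.57 in Control (SD, n = 4 each; exact permutation p = 0.429, adjusted 0.429), with OGD-R between the Control pairs. SUCLG2 minus SUCLA2 was -1.51 ± 0.10 in OGD-R and -1.35 ± 0.21 in Control (SD, n = 4 each; exact permutation p = 0.229, adjusted 0.305).

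**Figure D4:**
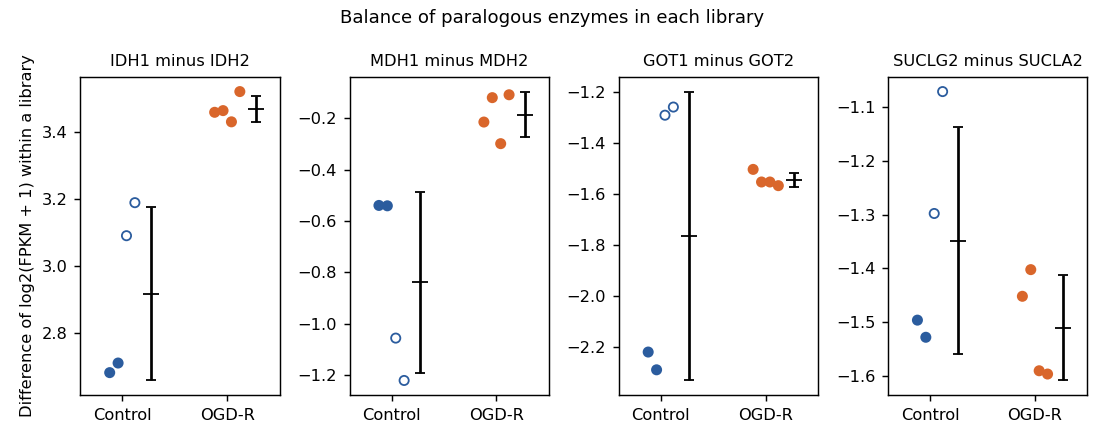
Difference of log2(FPKM + 1) between paralogous enzymes within each library, for IDH1 minus IDH2, MDH1 minus MDH2, GOT1 minus GOT2 and SUCLG2 minus SUCLA2, each on its own axis. Filled blue circles are Controls 1 and 2, open circles Controls 3 and 4, orange circles OGD-R, and black marks the mean and SD of 4 libraries; the orange points lie above all Controls in the first pair of panels and overlap the Control range in the last pair.

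How libraries were scaled changed the count of higher genes. With upper quartile scaling PDHA1, SUCLG1 and GLUD1 were also called higher, which made 5 of 32, where 14.5% of all genes tested were higher and 7.73% lower. With quantile normalisation PDHA1, SUCLG1, SDHA and GOT1 were added, which made 6, where 10.4% of all genes were higher and 10.7% lower. Scaled without the mitochondrially encoded genes, PDHA1 was added, which made 3, where 13.6% of all genes were higher and 7.42% lower. Of all calls, 51.4% were in the higher direction as deposited, 65.2% with upper quartile scaling, 49.4% with quantile normalisation and 64.8% without the mitochondrially encoded genes. GLUL, IDH1 and ME2 were called in the same direction under all 3.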

How the data were processed

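The authors deposited 1 table per library with gene ID, symbol and values read here as FPKM, normalized by them to gene length and library size. The unit is not written: it was inferred because low values times length, in 944 single-exon genes, gathered at whole multiples of 1 step: at the best-matching step, 18 to 32 of the 87 to 124 low values per library lay within 1% of a multiple. Most low values did not, so unit and depth remain inferences. Aligner, counter, build and annotation: not given in the sources used here. FPKM divides by library total, so a large gene group lowers the others. All 19974 Ensembl IDs were found in GENCODE 29 (GRCh38), which gave the coordinates; 4278 rows are newly assembled genes and were tested with the rest. Samples were grouped by title.

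Genes whose mean reached 1 FPKM were tested as log2(FPKM + 1) with limma 3.58.1 (R 4.3.3, intensity trend, Benjamini-Hochberg, threshold 0.05), a scale that understates changes of low genes. The fit was also run on simulated data with known changes, drawn with the spread within OGD-R and without a split among Controls. That run cannot show how the fit behaves with the Control split seen here. Paralog pairs used exact permutation (scipy 1.17.1). Members and lists were chosen with earlier results of these data known. Named were all members and the related genes that passed with no overlap between groups; other related genes named were chosen after their values were seen. Some related genes are counted but not reported here by name. A promoter was printed for a called member only where its window held no exon of that gene; no protein was printed. Of the 32 members, 12 have a pseudogene of their name and 18 have exons that overlap exons of another gene. Except for CS and SDHD, these overlaps are only with genes on the opposite strand. Whether counting used strand is not stated, so pseudogenes and overlaps leave the values of these members uncertain. No pairing by replicate number was found, in a check that the split among the Controls limits. Alternatives covered filters, pseudocount, scalings, a replicate block and libraries left out; count tests were foreseen for counts and not used. Figures used matplotlib 3.10.9 in Python 3.11.15.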

Additional observations from a re-analysis of the deposited data

Results flagged for a closer look

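Among 84 groups of 4 libraries looked at (each member and each related gene that passed, in Control and in OGD-R), 2 had 1 library far from the other 3. Chance gives about 1 in 20 where libraries scatter around 1 level. Most Control groups are split into pairs, so that rate does not hold for them. MPC1 was at 16.9 FPKM in OGD-R 2, below the other OGD-R libraries. SUCLA2 was at 42.4 FPKM in OGD-R 4, above the other OGD-R libraries. Neither gene was called in the comparison.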

How the results depend on the processing

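GLUL, IDH1 and ME2 kept their direction under every alternative run, and lost a call only where the report says so for GLUL. With libraries left out their direction was fixed, because their OGD-R libraries lie wholly above or below the Controls. Where values below moved or turned, the cause was not tested. Over all genes, the numbers higher and lower were 689 higher with a minimum of 5 FPKM, 4603 and 3337 without Controls 1 and 2, 2673 and 3807 without Controls 3 and 4, and 711 to 1426 and 561 to 1312 with 1 library left out, where leaving out any OGD-R library moved both numbers by over 1.5 times. Members called higher numbered 5 under upper quartile scaling (14.5% of all genes) and 6 under quantile normalisation (10.4% of all genes). They numbered 25 without Controls 1 and 2 (39.2% of all genes) and 4 without Controls 3 and 4 (22.8% of all genes). With 1 library left out they numbered 1 to 4 (4 without Control 2, 1 without OGD-R 3 or without OGD-R 4). Without Controls 3 and 4, 12 were lower (32.4% of all genes). Related genes called higher numbered 1 with the minimum of 5 FPKM (689 of all genes), 6 with no filter (1668 of all genes) and 5 under upper quartile scaling (14.5% of all genes). The filters change which genes are tested, and shares under them were not counted. Without Controls 1 and 2, 18 related genes were higher and 16 lower, 82.9% of those tested beside 67.6% of all genes. Without Controls 3 and 4, 5 were higher and 18 lower, 56.1% beside 55.2%.

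Same-numbered deviations from the group means correlated at 0.045 to 0.0646, and no same-numbered libraries were each other's best match. The split among the Controls enters these deviations, so the check cannot show that the libraries were unpaired. With the replicate number as a block 625 genes were higher and 507 lower, and GFPT1 (adjusted p = 0.0613 by limma) and ACLY (0.0642) were no longer called; GFPT1 was also lost under upper quartile scaling (0.0515).

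Of the log2 fold changes that turned, those without Controls 3 and 4 were -0.17 for MPC1, -0.10 for MPC2, -0.14 for PDHB, -0.20 for DLAT, -0.033 for PDHX, -0.0078 for DLD, -0.046 for CS, -0.13 for ACO1, -0.10 for IDH2, -0.26 for IDH3A, -0.0296 for IDH3B, -0.13 for SUCLG2, -0.14 for SUCLA2, -0.14 for SDHB, -0.46 for SDHC, -0.0298 for SDHD, -0.31 for FH and -0.31 for MDH2. Without Controls 1 and 2 they were 0.17 for PC, 0.20 for IDH3G, 0.10 for OGDH and 0.47 for GOT2. Quantile normalisation gave -0.057 for ACO1, 0.10 for IDH3G, 0.0025 for OGDH and 0.0235 for GOT2, upper quartile scaling 0.052 for IDH3G and 0.0237 for GOT2, and scaling without mitochondrially encoded genes 0.0575 and 0.029. With 1 library left out, ACO1 ran from -0.00043 to 0.18, IDH3A from -0.059 to 0.17, IDH3G from -0.11 to 0.057, OGDH from -0.17 to 0.0054, SDHC from -0.14 to 0.23, MDH2 from -0.073 to 0.17 and GOT2 from -0.26 to 0.13. The shift of GOT1 minus GOT2 was -0.27 without Controls 1 and 2, and that of SUCLG2 minus SUCLA2 0.0019 without Controls 3 and 4. The minimum of 5 FPKM left the lowest genes without a value.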

Other observations

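Carriers that move cycle intermediates across the mitochondrial membrane, also on the related list, did not pass the test, and some lay between the Control pairs. SLC25A10, the dicarboxylate carrier, was at 23.6, 24.5, 5.20 and 4.73 FPKM across Controls 1 to 4 beside 11.4 to 13.3 FPKM in OGD-R, between the pairs. SLC25A11, which carries malate and alpha-ketoglutarate, lay there too, with 56.9, 49.7, 21.8 and 21.4 FPKM in Controls 1 to 4 against 34.99 to 41.1 FPKM. SLC25A12, an aspartate-glutamate carrier, lay wholly above the Controls at 14.2 to 15.0 FPKM against 6.21 to 13.3 FPKM (adjusted p = 0.110 by limma). SLC25A1, the citrate carrier, was even, at 45.4 to 56.8 FPKM over all 8 libraries. DHTKD1, a relative of OGDH in lysine breakdown, stood at 11.0, 11.3, 2.80 and 2.37 FPKM across Controls 1 to 4 beside 10.1 to 11.6 FPKM in OGD-R.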
